A study of Canis lupus familiaris with 25 samples.

Results

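ACTA2, ACTG2, TAGLN, MYH11, CNN1, LMOD1, SYNPO2, MYLK, SMTN and CALD1 encode proteins of the contractile apparatus of smooth muscle, and gland myoepithelium makes many of them too. These 10 genes were taken by name from a table of 24532 genes, and 10 of 10 were found. They were measured in formalin-fixed, paraffin-embedded tumors of dogs by QuantSeq 3′ sequencing, in which only the stretch next to the poly(A) tail of a transcript is read. Benign tumors were represented by 10 hepatoid gland adenomas (HGA), which arise from modified sebaceous glands around the anus. Malignant tumors were represented by 11 primary carcinomas of the apocrine glands of the anal sac (AGASAC) and by 4 metastases in sublumbar lymph nodes, each matched by its number to the dog of AGASAC primary 1, 2, 3 or 4.

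The HGA came from 5 female and 5 male dogs aged 8 to 14 years, of which 4 were neutered. The primary AGASAC came from 5 female and 6 male dogs aged 8 to 12.5 years, of which 9 were neutered. The metastases came from 2 female and 2 male dogs aged 8 to 10 years, of which 3 were neutered. The dogs were of many breeds, the labels give no treatment, and each sample is a piece of archived tumor that also holds stroma and vessels. Counts on genes ran from 1562347 to 6389555 per HGA, from 2581453 to 4218340 per primary AGASAC and from 2857541 to 3289546 per metastasis. Levels are given as CPM, counts scaled to the size of the library. For a gene without a count, the upper limit was 3 counts, or 0.543 to 1.84 CPM in the different samples, for counting error only. HGA 10 stood apart from the other HGA, with a median Spearman correlation across genes of 0.76 to them, and 4 of the 10 genes had 3 counts or fewer in it. KRT8, a simple epithelial keratin, had at most 1 count in each HGA and 227.4 to 757.8 CPM in the primary AGASAC. Of 8 markers of the tumor epithelia, 7 were tested between the tumor types, with 2 called higher in HGA and 5 lower. Over all genes tested, 12.6% were called higher and 12.5% lower. The markers were chosen with earlier results of these data known, so their calls are a description and no test of tumor identity.

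In smooth muscle, calcium entering the cell binds calmodulin, which activates the myosin light chain kinase encoded by MYLK. The kinase phosphorylates the light chain of the myosin motor, whose heavy chain is MYH11, and the motor then pulls on filaments of the actins ACTA2 and ACTG2. Calponin (CNN1), caldesmon (CALD1), transgelin (TAGLN), leiomodin (LMOD1), smoothelin (SMTN) and synaptopodin 2 (SYNPO2) bind those filaments. Around the anus such genes can come from the internal anal sphincter, the walls of vessels, activated fibroblasts and the myoepithelial cells that surround apocrine glands. This list is not complete, and which cells made the RNA, tumor cells included, was not tested. A bulk sample cannot tell fewer cells of a type from less RNA per cell, and this holds for every value below.

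The first comparison asked how HGA and primary AGASAC differ in these genes. The tumor types differ in gland of origin as well as in malignancy, and 4 of 10 HGA dogs but 9 of 11 primary AGASAC dogs were neutered. Malignancy cannot be told apart from these here. The genes did not move together. MYLK was 8.55-fold higher in HGA than in primary AGASAC, SYNPO2 was 20.3-fold lower, and the other 8 genes did not pass the threshold. Calls required a log2 fold change (log2FC) of 1 or more in size and a p of 0.05 or less after Benjamini-Yekutieli adjustment, from edgeR's quasi-likelihood test over 12070 genes. That made 2 of 10 genes, beside 25.1% of all genes tested, with 1 gene higher in HGA beside 12.6% of all genes and 1 gene lower beside 12.5%. The median log2FC of the 10 genes was −0.23, against −0.03 over all genes. The signs of SYNPO2, ACTA2, TAGLN, CNN1 and LMOD1 depended on the samples or the scaling, as given beside them.

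**Figure D1:**
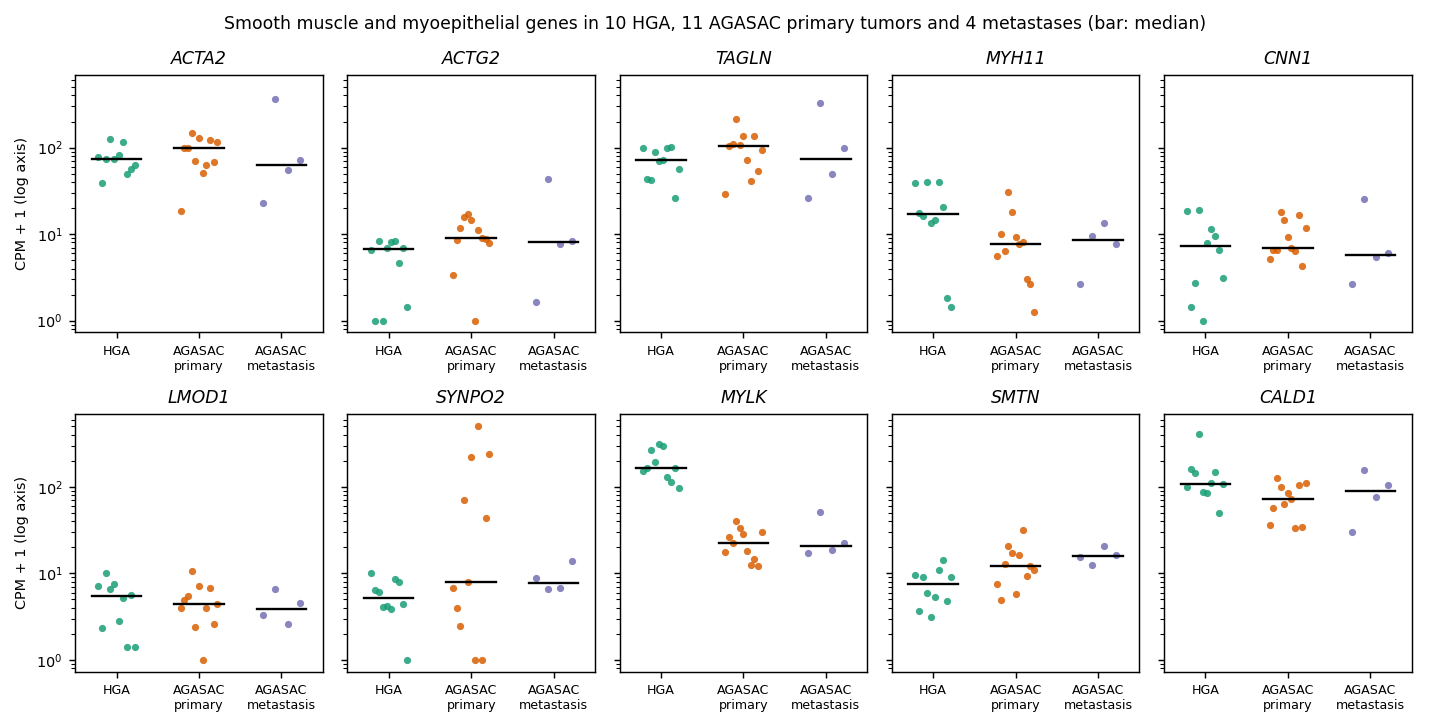
Expression of the 10 genes in each sample, as CPM + 1 on a log axis, with one point per sample and a bar at the group median. The MYLK points of HGA (97.2 to 308 CPM) lie above every AGASAC point (11.1 to 49.6 CPM), the SYNPO2 points of primary AGASAC spread from 0 to 509.9 CPM, and the groups overlap in the other genes.

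MYLK had the clearest difference of the 10. Its lowest, median and highest values were 97.2, 165.2 and 308 CPM in the 10 HGA and 11.1, 21.4 and 39.8 CPM in the 11 primary AGASAC. The lowest HGA was thus above the highest primary AGASAC. Groups did not overlap in 1 of the 10 genes and in 9.13% of all genes tested, with HGA the higher in 4.37%. HGA had a mean of 187.9 ± 75.0 CPM (SD, n = 10). Primary AGASAC had a mean of 22.3 ± 9.30 CPM (SD, n = 11). The log2FC was 3.095 ± 0.26 (SE), with a 95% interval of 2.55 to 3.64 and an edgeR adjusted p of 1.73e-08, and MYLK ranked 176 of 12070 genes by p. Without HGA 10 the log2FC was 3.17.

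The samples were extracted in several batches, and both tumor types were present with at least 2 tumors each in batches 5, 6 and 8. MYLK was higher in HGA within each of them, with a log2FC of 3.20 in batch 5, 2.65 in batch 6 and 3.11 in batch 8. The edgeR adjusted p was 0.0269, 0.0687 and 0.0839 in the same order, so that only batch 5 alone passed the threshold. With the extraction batch as a covariate the log2FC was 3.15 and the edgeR adjusted p 5.16e-07. The reads near the 3′ end of MYLK do not separate the kinase from telokin, a short protein without kinase activity that is transcribed from the end of the same gene.

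SYNPO2, which bundles actin at the Z-discs of striated muscle and the dense bodies of smooth muscle, differed mostly through 5 of the primary AGASAC. Its lowest, median and highest values were 0, 4.26 and 9.04 CPM in HGA and 0, 6.94 and 509.9 CPM in primary AGASAC. The 5 high tumors were AGASAC primary 8 with 509.9, 11 with 238.6, 6 with 217.4, 4 with 69.2 and 10 with 43.1 CPM. The other 6 primary AGASAC had 0 to 6.94 CPM and lay within the range of the HGA. The log2FC was −4.34 ± 1.06 (SE), with a 95% interval of −6.54 to −2.14 and an edgeR adjusted p of 0.0171.

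The 5 primary AGASAC with 43.1 CPM or more were exactly those of extraction batches 4, 6 and 7, and the 6 with 6.94 CPM or less were those of batches 5 and 8. The 3 HGA of batch 6 had 3.24 to 9.04 CPM, the 1 HGA of batch 7 had 5.13 CPM, and batch 4 held no HGA. Within batch 6 the log2FC was −4.49 (edgeR adjusted p = 0.0273), and within batch 8 it was 0.03 (edgeR adjusted p = 1). With the extraction batch as a covariate the log2FC was −1.55 and the call was lost (edgeR adjusted p = 1). It was also lost without HGA 4 and 5, the tumors at the base of the tail (log2FC −4.24, edgeR adjusted p = 0.0708). Within naming series A, the commoner of the patterns by which the study named its samples' files, SYNPO2 had a log2FC of 0.65 (edgeR adjusted p = 1). That fit held 9 HGA and the primary tumors of dogs 1, 2 and 3, and thus none of the 5 tumors high in SYNPO2. AGASAC primary 4 has no naming series. Extraction batch and level cannot be told apart within primary AGASAC, since no batch held tumors of both levels.

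**Figure D2:**
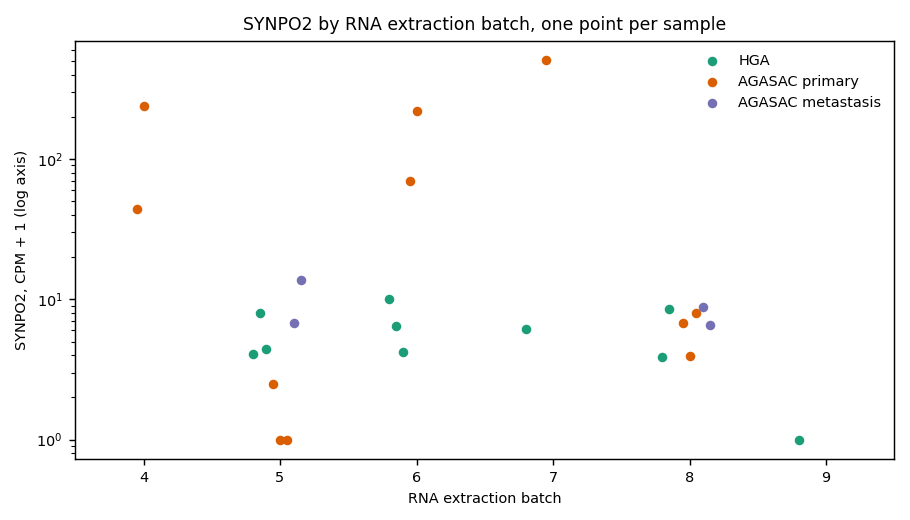
SYNPO2 as CPM + 1 on a log axis, by RNA extraction batch, with one point per sample and points shifted sideways for clarity. Primary AGASAC lie at 43.1 to 509.9 CPM in batches 4, 6 and 7 and at 0 to 6.94 CPM in batches 5 and 8. HGA reach at most 9.04 CPM. Metastases, which were extracted in batches 5 and 8 only, reach at most 12.8 CPM.

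Other muscle markers did not separate these tumors in the same way. Summed over 12 skeletal muscle markers, the 5 tumors high in SYNPO2 had 5.83 to 561.7 CPM and the other 6 had 26.7 to 1181 CPM. Summed over 20 other smooth muscle contractile genes, they had 1288 to 1806 CPM and 1101 to 1674 CPM. MYL6 and ACTN1 weigh most in that sum, with means of 514.6 and 277.7 CPM in primary AGASAC against 16.6 CPM for DES. The sum can therefore say little about the less abundant genes of the list. ACTA2 ranged from 62.3 to 145.1 CPM in the high tumors and from 17.5 to 120.7 CPM in the others. None of these ranges separated the high tumors from the rest, and no test was made on them.

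The actins ACTA2 and ACTG2 overlapped between the tumor types. ACTA2, the actin of vascular smooth muscle, myoepithelium and activated fibroblasts, had a lowest, median and highest value of 38.0, 72.1 and 126.0 CPM in HGA and 17.5, 97.0 and 145.1 CPM in primary AGASAC. Its log2FC was −0.21, and the 95% interval of −0.78 to 0.36 leaves out a change of 1 in either direction. The sign was positive within extraction batch 8 (0.71) and within naming series A (0.12). Both of these fits hold AGASAC primary 1, in which ACTA2 was lowest at 17.5 CPM. Without AGASAC primary 1 the log2FC was −0.33, and without AGASAC primary 4, in which ACTA2 was highest, it was −0.12. The cause of the change in sign was not tested. ACTG2, the actin typical of gut and other visceral smooth muscle, reached 7.42 CPM in HGA and 15.96 CPM in primary AGASAC, with 3 counts or fewer in 3 HGA and 1 primary AGASAC. Its log2FC was −0.98 with an interval of −2.19 to 0.22.

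The log2 ratio of ACTG2 to ACTA2 within a sample, with 1 CPM added to both, was −4.14 ± 1.32 in HGA (SD, n = 10). It was −3.30 ± 0.96 in primary AGASAC (SD, n = 11). The difference between the group means was −0.84, with p = 0.105 in a two-sided permutation test of that difference with 100000 resamples. Over the fits that left out a tumor, the difference ran from −1.08 to −0.53 and the permutation p from 0.0201 to 0.226. The lowest p came without AGASAC primary 7 and the highest without HGA 4, and neither tumor had an ACTG2 count. Without HGA 2, the other tumor with no ACTG2 count, the difference was −0.72 (permutation p = 0.184). Within extraction batches 5, 6 and 8 the difference was −0.32, −0.88 and −0.91, with exact two-sided permutation p of 0.9, 0.2 and 0.4. The smallest p that groups of that size allow is 0.1 in batch 5 and 0.2 in batches 6 and 8.

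The authors split reads that map to several places evenly between them, and how many reads of ACTA2 and ACTG2 this touched was not measured.

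MYH11, the heavy chain of smooth muscle myosin, which overlaps NDE1 in another canine assembly, ranged from 0.43 to 39.5 CPM in HGA (median 16.1) and from 0.24 to 29.5 CPM in primary AGASAC (median 6.64). Its log2FC of 1.25 ± 0.61 (SE) missed the threshold, with an edgeR unadjusted p of 0.0516 and an adjusted p of 0.955. CALD1, which holds myosin off actin until calcium rises, ranged from 49.2 to 402.7 CPM in HGA (median 107.1) and from 32.5 to 125.1 CPM in primary AGASAC (median 72.4). The highest HGA value was that of HGA 4. The CALD1 log2FC of 0.94 ± 0.32 had an edgeR adjusted p of 0.191, and it was 0.58 without HGA 4.

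The remaining filament-binding genes also overlapped. SMTN, which marks contractile smooth muscle, had 2.16 to 13.1 CPM in HGA and 3.92 to 30.8 CPM in primary AGASAC, with a log2FC of −0.91 ± 0.37 and an edgeR adjusted p of 0.467. TAGLN, an early marker of smooth muscle and of activated fibroblasts, had medians of 70.0 CPM in HGA and 102.3 CPM in primary AGASAC and a log2FC of −0.50 (interval −1.12 to 0.12). CNN1, a late marker of contractile smooth muscle, had medians of 6.23 and 5.94 CPM and a log2FC of −0.25 (interval −1.33 to 0.83). LMOD1, which starts new actin filaments, had medians of 4.46 and 3.40 CPM and a log2FC of 0.06 (interval −1.04 to 1.15). The sign of TAGLN was reversed within batch 8, that of CNN1 within batches 5 and 8, and that of LMOD1 when library size alone was used for scaling. At an unadjusted p under 0.05, 4 of the 10 genes (MYLK, SYNPO2, CALD1 and SMTN) stood beside 53.7% of all genes tested.

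**Figure D3:**
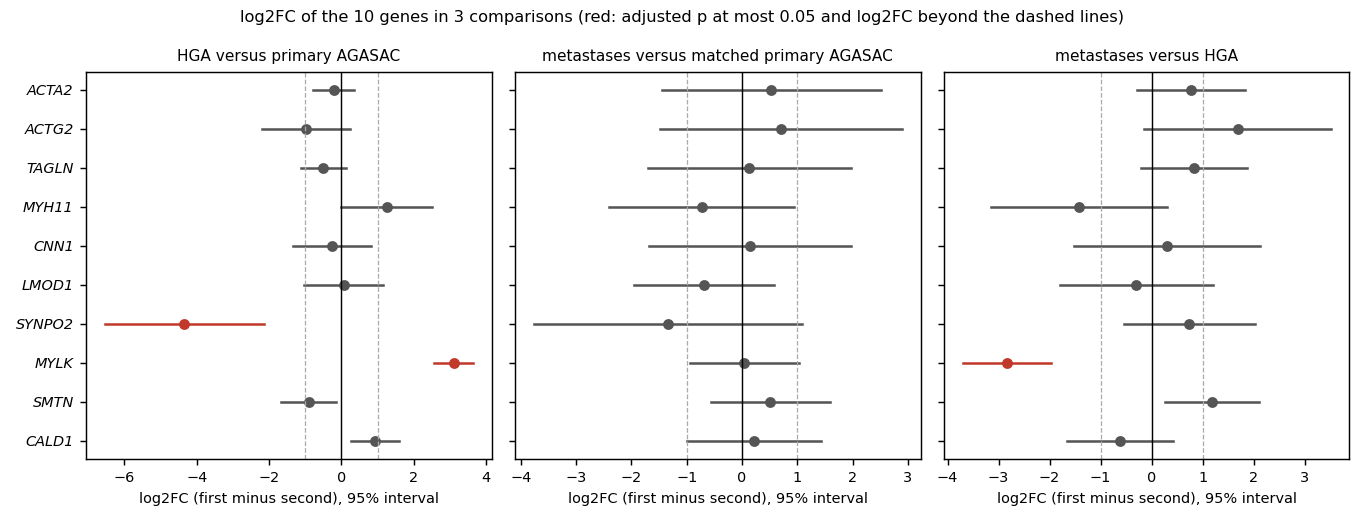
log2FC of the 10 genes in 3 comparisons, first group minus second, with 95% intervals from edgeR. Red marks called genes, which are MYLK and SYNPO2 in HGA versus primary AGASAC, MYLK in metastases versus HGA, and none in metastases versus matched primary AGASAC.

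Correlations between the 10 genes were computed within each tumor type. In the 11 primary AGASAC, 37 of the 45 gene pairs had a positive Spearman correlation, with a median of 0.37. In the 10 HGA, 29 of the 45 pairs were positive, with a median of 0.20. Genes of one library share its depth and composition, and the difference between the medians was not tested. Of 90 pairs over both tumor types, 1 passed a Benjamini-Hochberg adjustment of the permutation p, namely ACTA2 with TAGLN in primary AGASAC. Pearson's r was 0.87 (permutation p = 2.5e-04, adjusted 0.0225) and Spearman's rho 0.88 (permutation p = 7.2e-04, adjusted 0.0648), and r was 0.85 without the 2 tumors farthest from the median of ACTA2. MYLK correlated positively with 9 of 9 other genes in primary AGASAC (median rho 0.5) and with 3 of 9 in HGA (median rho −0.27). Its lowest value in HGA was with SMTN (rho −0.72, permutation p = 0.024, adjusted 0.259, and r −0.62, permutation p = 0.0595, adjusted 0.412), which did not pass the adjustment. Without the 2 HGA farthest from the median of MYLK, r with SMTN was −0.40.

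The genes outside the 10 whose levels followed the mean of the 10 most closely were KLF7, COL6A3, TSEN34, CCDC112 and EPAS1. Their Pearson correlations with that mean were 0.772, 0.762, 0.758, 0.755 and 0.751 over the 21 primary tumors, each centered within its tumor type. They were the highest of 12060 genes and are given as a description. COL6A3 encodes a collagen of stroma, and EPAS1 a hypoxia-inducible transcription factor. In the same measure, the pericyte markers PDGFRB and RGS5 had 0.712 and 0.378, the collagens COL3A1 and COL1A2 had 0.633 and 0.543, and the endothelial markers PECAM1 and VWF had 0.347 and 0.018.

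Of 20 other smooth muscle contractile genes, 18 were tested. Most of these, 12 genes, were not called, while 2 were called higher in HGA and 4 were called lower. The median log2FC of the 18 was −0.13. Each gene list was described in the same fit, beside the shares of 12.6% higher and 12.5% lower over all genes.

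MYL9, the regulatory light chain that MYLK phosphorylates, was higher in HGA along with its kinase. It had 15.4 to 80.5 CPM in HGA (median 30.8) and 5.93 to 18.95 CPM in primary AGASAC (median 13.1), with a log2FC of 1.58 ± 0.30 (SE) and an edgeR adjusted p of 0.00115. CSRP1, a LIM protein that bundles actin, had a log2FC of 1.08 ± 0.28 and an edgeR adjusted p of 0.0311. Its call was lost with library size alone (0.77) and in 11 of the 21 fits that left out a tumor.

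KCNMB1, the subunit that tunes the calcium-activated potassium channel of smooth muscle, had the largest fall among the called genes of this list. It had 0 to 6.16 CPM in HGA (median 1.501) and 16.01 to 117.9 CPM in primary AGASAC (median 66.6), so the groups did not overlap. The log2FC was −5.19 ± 0.48 and the edgeR adjusted p 6.52e-08. PPP1R14A, which blocks the phosphatase that undoes the action of MYLK, had 0 to 4.34 CPM in HGA (median 1.29) and 4.82 to 45.3 CPM in primary AGASAC (median 15.4). Its log2FC was −3.63 ± 0.49 and its edgeR adjusted p 1.66e-05. TPM2, a tropomyosin, and ITGA8, an integrin chain, were the other calls, with log2FC of −2.22 and −1.81, and were named after their values were seen. ITGA8 lost its call with the extraction batch as a covariate (edgeR adjusted p = 0.0595).

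Of the genes that signal to the contractile apparatus, 12 were tested, of which 3 were called higher in HGA, 3 lower and 6 were not called. EDNRA, the endothelin receptor that raises calcium in smooth muscle, had 73.0 to 647.9 CPM in HGA (median 208.3) and 3.92 to 24.02 CPM in primary AGASAC (median 13.0), with a log2FC of 4.39 ± 0.41 and an edgeR adjusted p of 7.48e-08. ROCK2, a kinase that sustains light chain phosphorylation, had a log2FC of 1.85 ± 0.26 (edgeR adjusted p = 3.64e-05), with 75.2 to 265.9 CPM in HGA and 11.2 to 60.7 CPM in primary AGASAC. Neither gene's groups overlapped.

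GUCY1B3 and GUCY1A3, the older symbols of both subunits of the soluble guanylate cyclase through which nitric oxide relaxes smooth muscle, fell together. GUCY1B3 had 0.42 to 29.5 CPM in HGA (median 6.60) and 23.3 to 652.9 CPM in primary AGASAC (median 245.0), with a log2FC of −5.08 ± 0.68 and an edgeR adjusted p of 1.66e-05. GUCY1A3 had 2.26 to 18.4 CPM in HGA (median 5.75) and 5.21 to 587.6 CPM in primary AGASAC (median 115.4), with a log2FC of −4.86 ± 0.78 and an edgeR adjusted p of 1.94e-04. PPP1CB, a phosphatase subunit, was the other call in the higher direction (log2FC 1.63), and ITPR1, a calcium release channel, in the lower (log2FC −4.45), both named after their values were seen. RHOA and ROCK1 were not called.

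**Figure D4:**
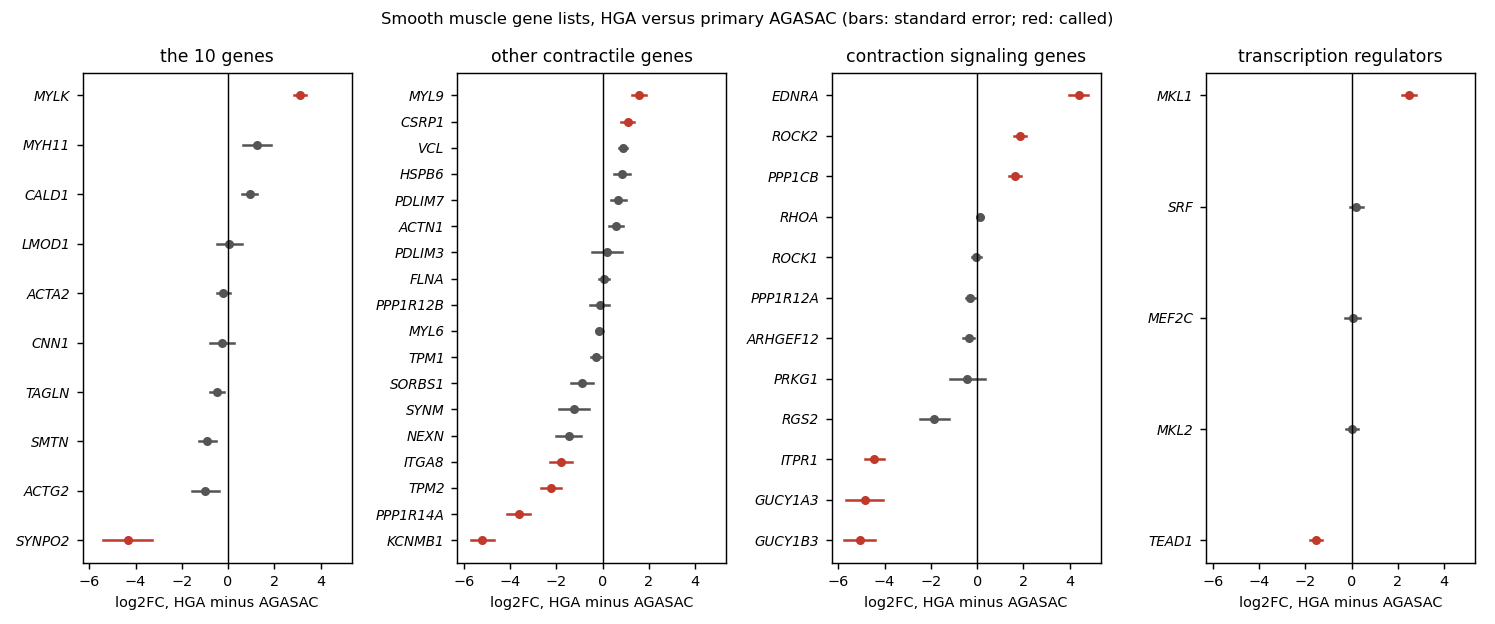
log2FC in HGA minus primary AGASAC for the 10 genes and 3 lists of smooth muscle genes, with standard errors and called genes in red. MYLK, MYL9, CSRP1, EDNRA, ROCK2, PPP1CB and MKL1 lie to the right of 0 and SYNPO2, KCNMB1, PPP1R14A, TPM2, ITGA8, GUCY1A3, GUCY1B3, ITPR1 and TEAD1 to the left, and gray genes were not called.

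Among the transcription regulators of smooth muscle, 5 were tested, 1 was called higher and 1 lower. MKL1, the older symbol of a coactivator that carries actin signals to serum response factor, had 31.4 to 108.8 CPM in HGA (median 48.7) and 2.43 to 19.6 CPM in primary AGASAC (median 9.02), with a log2FC of 2.47 ± 0.31 and an edgeR adjusted p of 7.07e-06. TEAD1, the DNA-binding partner of the Hippo pathway effectors, had a log2FC of −1.55 ± 0.25 (edgeR adjusted p = 1.60e-04). SRF, serum response factor itself, had medians of 40.1 and 45.4 CPM and a log2FC of 0.20 (interval −0.39 to 0.79, edgeR adjusted p = 1), and its sign was negative with library size alone (−0.06). MYOCD, the master coactivator of smooth muscle, had 3 counts or fewer in 9 of 10 HGA, 10 of 11 primary AGASAC and 2 of 4 metastases and was not tested. DES, the intermediate filament of muscle, was not tested either, with medians of 1.84 CPM in HGA and 7.18 CPM in primary AGASAC and 3 counts or fewer in 5 HGA and 2 primary AGASAC.

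Markers of epithelial, vascular and other cell types were described in the same fit. Of the myoepithelial and basal epithelial markers, 8 of 10 were tested and 7 were called higher in HGA, with a median log2FC of 6.05 and a summed level of 3503 to 13440 CPM in HGA and 45.1 to 342.9 CPM in primary AGASAC. MME, the tested marker that was not called, went the other way, with medians of 6.79 CPM in HGA and 36.5 CPM in primary AGASAC. Its log2FC was −2.37 ± 0.85 (edgeR adjusted p = 0.248), and it was named after its values were seen. KRT14, a basal keratin, had 2359 to 11500 CPM in HGA and 0 to 9.18 CPM in primary AGASAC, where 8 of 11 tumors had 3 counts or fewer. KRT5, its partner, had 422.4 to 2254 CPM in HGA and 0 to 18.1 CPM in primary AGASAC. OXTR, the oxytocin receptor of contractile myoepithelium, had 3 counts or fewer in 10 of 10 HGA, 11 of 11 primary AGASAC and 4 of 4 metastases. The basal markers are shared by every stratified epithelium, and their part in the higher MYLK of HGA was not tested.

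Of the pericyte markers, 5 of 10 were tested and 3 were called higher in HGA, with a summed level of 84.9 to 511.5 CPM in HGA and 41.9 to 134.4 CPM in primary AGASAC. RGS5, the marker most typical of pericytes, had a log2FC of 1.81 ± 0.33 (edgeR adjusted p = 8.49e-04). CSPG4, named after its values were seen, went the other way and was not called (log2FC −1.38, edgeR adjusted p = 0.897). ABCC9, a potassium channel subunit of the same cells, had 1.69 ± 0.46 (edgeR adjusted p = 0.043), a call lost with the extraction batch as a covariate (edgeR adjusted p = 0.363) and a sign that turned within batch 6 (−0.19). Of the endothelial markers, 8 of 10 were tested and 3 were called higher in HGA, with summed levels of 244.7 to 670 CPM and 103.5 to 433.6 CPM. TIE1 had a log2FC of 1.89 (edgeR adjusted p = 2.71e-04) and CLDN5 of 1.95 (edgeR adjusted p = 0.0322, and 0.0516 with the extraction batch as a covariate). ESAM, also named after its values were seen, went the other way and was not called (log2FC −1.86, edgeR adjusted p = 0.213).

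None of the 10 fibroblast markers was called, and their sums of 1360 to 6182 CPM in HGA and 1099 to 8302 CPM in primary AGASAC overlapped. Of the 12 skeletal muscle markers, 2 were tested and both were called lower in HGA, with log2FC of −6.38 for ACTA1, skeletal actin, and −6.28 for TTN, titin, and summed levels of 2.55 to 29.8 CPM in HGA and 5.83 to 1181 CPM in primary AGASAC. Of 8 lymphocyte markers, 1 was tested and 0 were called. The highest sum of skeletal muscle markers was in AGASAC primary 5, whose SYNPO2 was 6.94 CPM. The part of muscle tissue, vessels or pericytes in the levels of the 10 genes was not tested.

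The second comparison set the 4 metastases against the primary tumors of the same dogs, in a fit without the dog as a term. None of the 10 genes was called, and none of the 12629 genes tested was called by edgeR, a share of 0%. Without adjustment, 145 genes (1.15%) had a p under 0.05, and 0 of the 10 were among them. DESeq2 called 5 genes, and 0 of the 10 were among them. The groups overlapped in 10 of 10 genes, and they did not overlap in 1.14% of all genes (0.673% with the metastases higher). No gene of the 10 other lists was called. The 95% intervals were wide, from −1.45 to 2.51 for ACTA2 and from −0.95 to 1.02 for MYLK. With the dog as a block, edgeR called 1 gene, which was not among the 10, and 491 genes had an unadjusted p under 0.05. The block turned the sign of ACTG2 (−0.02), TAGLN (−0.24), CNN1 (−0.27) and MYLK (−0.05), each with an edgeR adjusted p of 1.

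The 4 dogs went in different directions. In dog 2, 9 of the 10 genes were higher in the metastasis, with a median log2 ratio of 1.42. In dog 4, 9 of the 10 were lower, with a median of −1.09. Dogs 1 and 3 each had 7 genes lower in the metastasis, with medians of −0.21 and −0.43. ACTA2 was 17.5 CPM in primary tumor 1 and 22.1 in its metastasis, 98.4 and 367.7 CPM in dog 2, 97.0 and 53.4 CPM in dog 3, and 145.1 and 70.6 CPM in dog 4. TAGLN went from 102.3 to 323.9 CPM in dog 2 and from 215.1 to 96.8 CPM in dog 4. Metastasis 2 thus held the highest value of all 25 samples for both genes.

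**Figure D5:**
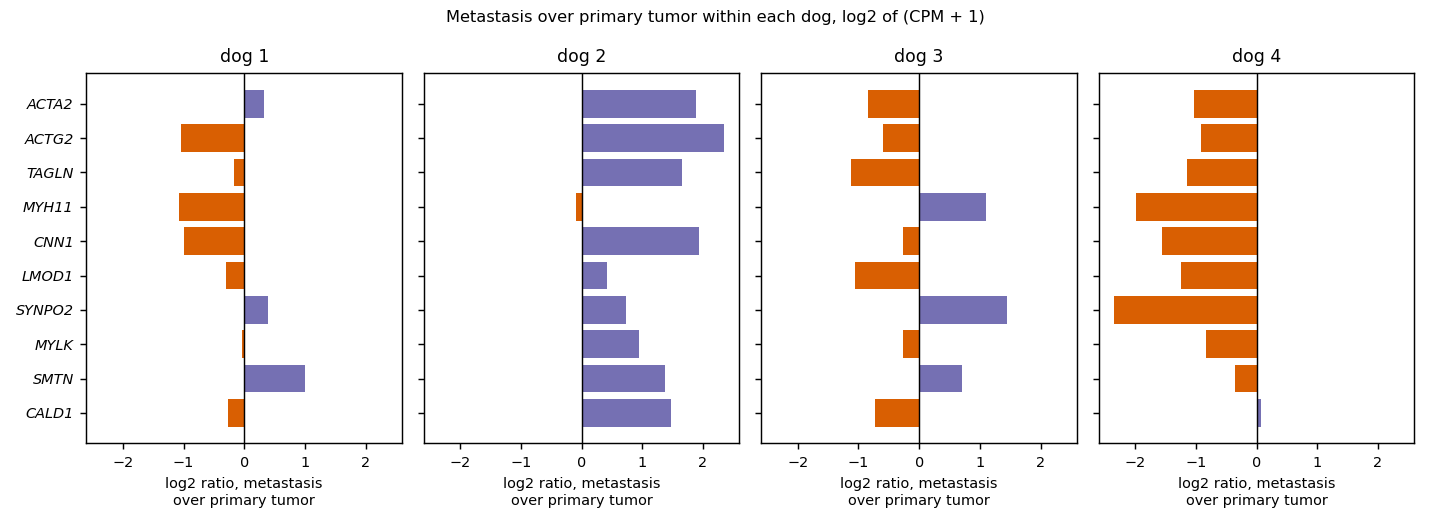
log2 ratio of metastasis over primary tumor for each of the 10 genes in each of the 4 dogs, from CPM + 1, as bars from 0. In dog 2, 9 of 10 bars point to the metastasis, with a median of 1.42, and in dog 4, 9 of 10 point to the primary tumor, with a median of −1.09.

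Markers of stroma moved with metastasis 2. Its sum of fibroblast markers was 13400 CPM, the highest of the metastases, whose lowest was 788.7 CPM in metastasis 1, and its sums of pericyte markers (154.4 CPM) and endothelial markers (221 CPM) were also the highest of the 4. Metastasis 1 was the lowest of the 4 in all 3 sums, and its 10 genes summed to 120.7 CPM against 995.7 CPM in metastasis 2. The part of stroma in these levels was not tested. Without metastasis 2, the log2FC of ACTA2 turned from 0.53 to −0.89, that of TAGLN from 0.13 to −1.01 and that of CNN1 from 0.14 to −1.12, with an edgeR adjusted p of 1 in each fit. SYNPO2 showed the reverse dependence, since its log2FC of −1.34 turned to 1.24 without AGASAC primary 4. Dog 4 was the one dog whose samples were extracted in different batches, the primary tumor in batch 6 and the metastasis in batch 5, so that dog and batch cannot be told apart there.

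Skeletal muscle markers were at a low level in the metastases. Their sum was 37.4 CPM in primary tumor 1 and 6.81 CPM in its metastasis, 737.2 and 6.63 CPM in dog 2, 26.7 and 2.90 CPM in dog 3, and 561.7 and 3.20 CPM in dog 4. The sum was thus lower in the metastasis in 4 of 4 dogs, although 0 of the 3 markers tested were called. The part of skeletal muscle in the primary tumors' levels of the 10 genes was not tested.

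SMTN and LMOD1 kept their sign in each fit that left out a sample. SMTN was higher in the metastasis in dogs 1, 2 and 3, at 14.3 against 6.63, 11.7 against 3.92 and 19.9 against 11.9 CPM, and lower in dog 4, at 15.3 against 20.0 CPM. Its log2FC was 0.51 ± 0.48 (SE) with an interval of −0.57 to 1.59 and an edgeR adjusted p of 1.

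The third comparison set the 4 metastases against the 10 HGA, which are the same HGA as in the first comparison. Of the 10 genes, 1 was called, MYLK, beside 16.1% of 13195 genes tested. Over all genes, 7.69% were called higher in the metastases and 8.4% lower. MYLK was 16.2, 49.6, 17.7 and 21.7 CPM in metastases 1 to 4 and at least 97.2 CPM in HGA, without overlap. Over all genes the groups did not overlap in 16.1%, with the metastases higher in 8.72%. At an unadjusted p under 0.05, 2 of the 10 genes (MYLK and SMTN) stood beside 41.2% of all genes. The log2FC was −2.84 ± 0.41 (SE), with an interval of −3.71 to −1.98 and an edgeR adjusted p of 6.35e-04. SMTN had a log2FC of 1.18 ± 0.43, with medians of 14.8 CPM in the metastases and 6.45 CPM in HGA, and an edgeR adjusted p of 0.471. It passed only with the less strict Benjamini-Hochberg adjustment (edgeR adjusted p = 0.0468).

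SYNPO2 in the metastases was 7.79, 5.57, 5.79 and 12.8 CPM, close to the 0 to 9.04 CPM of HGA, with a log2FC of 0.74 and an interval of −0.55 to 2.02. The metastases were extracted in batches 5 and 8 only, where primary AGASAC also had at most 6.94 CPM. Their low level can therefore not be told apart from the extraction batch. ACTA2, ACTG2 and TAGLN had log2FC of 0.76, 1.69 and 0.83 and MYH11 of −1.42, with an edgeR adjusted p of 1 each. Those of ACTA2 and TAGLN turned to −0.63 and −0.29 without metastasis 2.

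The related genes had these values in the metastases. PPP1R14A was 18.8 to 36.7 CPM (log2FC 4.23, edgeR adjusted p = 1.12e-04) and KCNMB1 12.2 to 91.4 CPM (log2FC 4.64, edgeR adjusted p = 2.54e-04), both called higher than in HGA. EDNRA was 9.82 to 16.3 CPM and was called lower (log2FC −4.25, edgeR adjusted p = 6.21e-04). MYL9 was 5.43 to 33.7 CPM and was not called. Of the contractile list, 2 of 18 genes tested were called higher and 0 lower, and of the signaling list 3 of 12 were called higher and 2 lower.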

How the data were processed

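RNA of 25 canine tumor samples was sequenced with QuantSeq 3′. The authors trimmed reads with cutadapt, aligned them with STAR to CanFam3.1, counted them per gene with featureCounts and deposited whole counts without normalization. Multi-mapped reads were split evenly over their locations, which can affect near-identical actin copies. The deposited table also holds a signal, the counts after scaling by size factors, and the authors' own log2 fold changes with p-values and adjusted p-values from DESeq2, none of which were used.

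The labels give each primary tumor its own number, breed and age. Counts were fitted in R 4.3.3 with edgeR 4.0.16 (TMM, filterByExpr with minimum count 10 and minimum total 15, quasi-likelihood test), Benjamini-Yekutieli adjusted over all genes tested. CPM use TMM factors over all 25 samples. The fits were tested on simulated data. The 10 genes and all gene lists were chosen with earlier results of these data known. From each list, up to 2 called rises and 2 called falls are named, with MYOCD, SRF, DES and MYL9 always, and the 5 genes most like the mean of the 10. Groups follow the labels, and extraction batches follow the study's sample list. Primary tumor and metastasis of a number share a dog, and their deviations from the group means correlated at 0.41 to 0.656 across genes. Chi-square comparison of all pairs within groups found 0 duplicates. Permutation tests were two-sided (SciPy 1.17.1). MRTFA, MRTFB, NKX2-3, GUCY1A1 and GUCY1B1 were not found by symbol. In the annotation of UU_Cfam_GSD_1.0, another assembly from which no coordinates were taken, MYH11 overlaps NDE1, LMOD1 overlaps 3 other loci and MYLK 2, and a part of their reads may belong to those. Alternatives were DESeq2 1.42.0, RLE or library size alone, other filters, Benjamini-Hochberg, a replicate block, the extraction batch as a covariate, single batches, naming series A, no tail-base HGA, all 15 AGASAC samples, and leaving out each sample. Their use on list genes was added after seeing the data.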

Additional observations from a re-analysis of the deposited data

Results flagged for a closer look

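Of 20 sets of 4 to 10 values tested (10 genes in HGA and in the metastases), 5 held a sample far from the others by Dixon's criterion. Chance gives about 1 in 20 for independent sets of normally distributed values. These sets share their samples and are not independent, so the 5 cannot be weighed against that rate. In 4 genes the sample was metastasis 2. ACTA2 was 368 CPM there against 22.1 to 70.6 CPM in the other metastases, ACTG2 was 42.2 CPM against 0.649 to 7.35 CPM, CNN1 was 24.1 CPM against 1.62 to 5.11 CPM and MYLK was 49.6 CPM against 16.2 to 21.7 CPM. The fifth was CALD1 in HGA 4, with 403 CPM against 49.2 to 158 CPM in the other HGA. The part of tissue composition in these samples was not tested.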

How the results depend on the processing

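In HGA versus primary AGASAC, 2 of the 10 genes were called. The count was 1 with at least 10 counts in every sample, with the replicate number as a block, with the extraction batch as a covariate, within batch 5, within batch 6, within naming series A and without the tail-base HGA, and 0 within batch 8. SYNPO2 was the gene lost or not tested in each of these but batch 6, where it was MYLK, and both were lost within batch 8. All genes called fell from 3032 to 1452 with at least 10 counts in every sample and to 262, 637 and 338 within batches 5, 6 and 8, where fewer samples were tested. The sign was reversed for ACTA2 (0.713 within batch 8, 0.123 within series A), TAGLN (0.117 within batch 8), CNN1 (0.229 within batch 5, 0.178 within batch 8, 0.600 within series A), SYNPO2 (0.028 within batch 8, 0.647 within series A) and LMOD1 (−0.259 with library size alone, −0.023 with the block, −0.003 with the covariate, −0.738 within batch 6, −0.119 without the tail-base HGA). Among list genes, fitted in each setting after seeing the data, ABCC9 was reversed within batch 6 (−0.185) and SRF with library size alone (−0.063), within batch 8 (−0.479) and without the tail-base HGA (−0.117). Library size alone moved the median log2FC of all genes from −0.032 to −0.331 and the share of calls that were higher in HGA from 50.2% to 32.8%. In metastases versus HGA it moved them from −0.018 to 0.262 and from 47.8% to 63.7% higher in the metastases.

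In metastases versus matched primary AGASAC, all genes called were 5 with DESeq2 and 1 with the replicate block, which pairs the samples of a dog and reversed ACTG2 (−0.021), TAGLN (−0.235), CNN1 (−0.268) and MYLK (−0.046), none of them called. In metastases versus HGA, 2 of the 10 genes were called with Benjamini-Hochberg adjustment, and all genes called were 1153 with at least 10 counts in every sample, 3211 with DESeq2, 3536 with Benjamini-Hochberg adjustment and 662 with the replicate block, which reversed ACTA2 (−0.185) and CNN1 (−0.160). Numbers shared by HGA and AGASAC do not pair samples (correlations of −0.06 to 0.024 for the primary tumors).

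Leaving out each sample in turn gave −1.079 to −0.527 for the log2 ratio of ACTG2 to ACTA2. Of the 10 genes, it gave 2 called in HGA versus primary AGASAC, 0 in metastases versus matched primary AGASAC and 1 in metastases versus HGA in every such fit, with 2828 to 3373, 0 and 1543 to 2588 of all genes. Signs were reversed for LMOD1 (−0.143 to 0.197) and SRF (−0.005 to 0.292) in the first comparison. They were reversed for ACTA2 (−0.89 to 0.889), ACTG2 (−0.851 to 1.101), TAGLN (−1.005 to 0.666), MYH11 (−1.102 to 0.227), CNN1 (−1.121 to 0.816), SYNPO2 (−1.726 to 1.24), MYLK (−0.487 to 0.343) and CALD1 (−0.188 to 0.529) in the second, and for ACTA2 (−0.634 to 1.122), TAGLN (−0.289 to 1.176) and CNN1 (−0.932 to 0.653) in the third. The cause of these changes was not tested. Depth limits ACTG2, LMOD1, CNN1, MYH11 and SYNPO2 most, since single tumors had 3 counts or fewer.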

Other observations

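The genes most like SYNPO2 over the 11 primary AGASAC were looked up after its values were seen. Of 12058 genes, SGK1, a kinase induced by glucocorticoids and salt, was the closest (Pearson's r 0.94, Spearman's rho 0.97), followed by SIMC1 (r 0.89), USP53 (r 0.87), ALDH5A1 (r 0.87) and CAPN1 (r 0.86). These are the highest of many and are given without a test. SGK1 was 61.4 to 181.6 CPM in the 5 tumors of extraction batches 4, 6 and 7 and 4.88 to 70.8 CPM in the 6 of batches 5 and 8, so the ranges overlapped. USP53, a neighbor of SYNPO2 in the annotation of UU_Cfam_GSD_1.0, was 156.7 to 287.1 CPM in the former and 40.4 to 106.2 CPM in the latter. Its ranges did not overlap. MYOZ2, another neighbor, had 3 counts or fewer in 7 of 11 primary AGASAC and reached 21.4 CPM in AGASAC primary 6. The tumors with more were AGASAC primary 4 (6 counts), 6 (62), 10 (17) and 11 (18), all of them high in SYNPO2. AGASAC primary 8, the highest in SYNPO2, had 0 counts. Of the other neighbors, C32H4orf3 and SEC24D were called lower in HGA (log2FC −2.07 and −2.02), and METTL14 was not called (log2FC 0.65). In HGA, USP53 was lower than in primary AGASAC (log2FC −2.91, edgeR adjusted p = 7.84e-05), as was SGK1 (log2FC −3.02, edgeR adjusted p = 5.33e-04). CAPN1 was higher in HGA (log2FC 1.68, edgeR adjusted p = 1.15e-04), and SIMC1 (log2FC −0.62) and ALDH5A1 (log2FC −0.0055) were not called.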
